A study of Mus musculus with 12 samples.

Results

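The genes described here are 39 endothelial and endocardial genes of the mouse right atrium listed by gene symbol for their known use in vessel lining, endocardium or lymphatic lining. All 39 were found in a table of 40690 genes, and all 39 were among the 14336 genes high enough to test. RNA of the right atrium was sequenced in 12 libraries, 6 from littermate controls and 6 from iNICD mice, the genotype in which the study activated Notch signalling. Mice of both groups were 2 to 3 months old when they began 3 weeks of doxycycline chow, and both were still on it at harvest, with no washout. The labels used here do not name the promoter or cell type that drives the iNICD allele, the strain or the sex, so which atrial cells carried the active receptor cannot be read from them. Values are CPM, the reads of a gene scaled to the total reads assigned in that library. The design lists 6 different atrial samples for each group and does not spell out that each came from its own animal, so p-values measure the spread between these samples.

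Endothelial cells line every blood vessel, the endocardium is the endothelial lining of the heart chambers, and a separate endothelium lines the lymphatic vessels. All are held together by junction proteins such as VE-cadherin (Cdh5) and PECAM-1 (Pecam1), and their growth is steered by the VEGF receptors, the Tie receptors and the ephrins. Notch is one of the main signals among endothelial cells: it separates tip from stalk cells in a sprout, favours arterial over venous identity, and is needed in the embryonic endocardium. Its released intracellular domain enters the nucleus and binds RBPJ, a DNA-binding protein whose core recognition letters are TGGGAA.

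As a check of the labels, Notch1 was at 246 ± 33.8 CPM in the control group and 4335 ± 906 CPM in the iNICD group (SD, n = 6 each), with no overlap. The libraries held 12015650 to 22716190 assigned reads. Of the 14336 tested genes, 962 passed limma's test at an adjusted p under 0.05, which is 6.71%, with 698 higher (4.87%) and 264 lower (1.84%). Xist was high in 7 libraries (controls 1, 2, 3 and 5, iNICD 1, 2 and 3) and low in the other 5. The RNA Gm42418 was above 10000 CPM in 3 libraries (control 3, iNICD 3 and iNICD 5). Control 4 stood apart from the other controls for many of the endothelial genes, and values without it are given for some of them.

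Few of the endothelial genes were called different between iNICD and control. Esam, an immunoglobulin-family adhesion molecule of endothelial tight junctions that is also found on platelets, was the 1 gene of 39 that passed the test, and it was higher in iNICD. That is 2.56% of the 39, against 6.71% of all tested genes, and 1 higher of 39 against 4.87%. None passed in the lower direction by limma, against 1.84% of all tested genes. In that direction 6 genes had an unadjusted p under 0.05 (Pecam1, Flt1, Nfatc1, Gata2, Apln and Nos3), which is 15.4% of the 39 beside 5.53% of all tested genes. Control 4 was the highest control for each of these but Gata2. Without it the estimates of Pecam1, Flt1, Nfatc1, Apln and Nos3 became smaller in size, and that of Gata2 stayed at -0.30. These shares without control 4 are not given here. The quasi-likelihood test of edgeR called 0 lower and DESeq2 called 4 (Gata2, Nos3, Tie1 and Apln). Over all tested genes, in either direction, edgeR called 1003 and DESeq2 1425, beside 962 by limma. The shares of all genes that these 2 tools called lower are not given here. The higher side held 1 gene at an unadjusted p under 0.05, beside 13.3% of all tested genes. The fitted log2 fold change was negative for 26 of the 39 and positive for 13, with a median of -0.093 beside 0.045 over all tested genes. With median-of-ratios or quantile scaling, or by edgeR or DESeq2, 31 were negative and 8 positive, and without control 4 it was 28 and 11. In whole-atrium RNA, fewer cells of a type and less RNA per cell cannot be told apart.

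The intervals show how large a change these libraries could still hold. The 95% interval of the log2 fold change lay within -1 to 1 for 37 of the 39 genes and within -0.5 to 0.5 for 26. Standard errors ran from 0.069 to 0.34, with a median of 0.11. Of the 38 genes other than Esam, 34 had a fitted log2 fold change of less than 0.3 in size, and the whole range was -0.98 to 0.23.

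**Figure D1:**
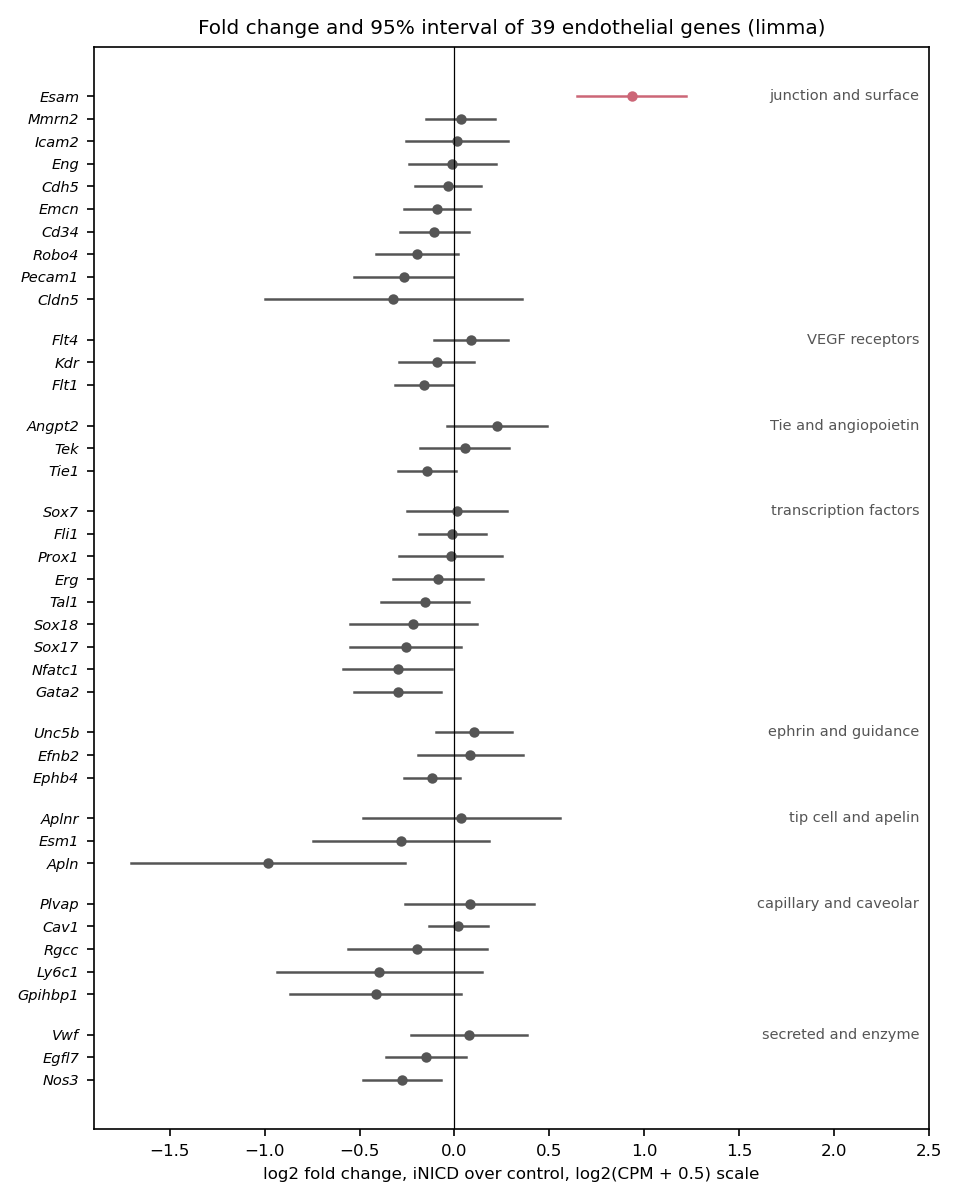
Fitted log2 fold change of iNICD over control (points) with its 95% interval (lines) for the 39 endothelial genes on the log2(CPM + 0.5) scale, arranged by role, with 6 libraries per group. Esam, in red, stands at 0.93, and the other 38 genes lie between -0.98 (Apln) and 0.23 (Angpt2).

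Levels differed widely among the 39 genes. Per kilobase of exon, the highest control level was that of Cav1, the coat protein of caveolae, at 85.7 CPM per kb. It was followed by Eng (endoglin, a co-receptor for BMP9) at 64.0, Pecam1 at 45.7, Egfl7 at 43.0 and Vwf at 40.1 CPM per kb. At the other end stood Sox17 at 1.28 and Esm1, a proteoglycan of sprouting tip cells, at 0.632 CPM per kb. Several of the genes are also used by other atrial cells (Cav1 by smooth muscle and fat, Prox1 by cardiomyocytes, Fli1 and Gata2 by blood cells), so their levels are not those of endothelium alone.

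The Esam gene (ENSMUSG00000001946) lies on the plus strand at chr9:37528078-37538319 of GRCm38. Its level was 55.2, 61.3, 53.7, 79.9, 51.9 and 47.5 CPM in controls 1 to 6, against 138, 109, 106, 134, 83.7 and 99.4 CPM in iNICD libraries 1 to 6. Every iNICD library was above every control, the nearest pair being control 4 and iNICD 5. The means were 58.3 ± 11.5 and 112 ± 20.9 CPM (SD, n = 6 each), a log2 fold change of 0.93 with a standard error of 0.14, a 95% interval of 0.65 to 1.22 and an adjusted p of 0.00054 by limma. The exact two-sided permutation test gave 0.0022, the smallest value that 6 against 6 allows. Across all tested genes, 4.59% had groups that did not overlap, and among the 39 Esam was the only one. With median-of-ratios or with quantile scaling the Esam groups overlapped, while its fold change (0.88 and 0.89) still passed the test.

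Ratios of Esam to other junction genes of the same libraries do not depend on scaling. They were taken after the values were seen, with Esam already free of overlap, and are given as a description. The ratio of Esam to Pecam1 CPM, read only between libraries, was 0.190 to 0.215 in the 6 controls and 0.324 to 0.674 in iNICD. Control 4, whose Esam and Pecam1 were both the highest of the controls, had the lowest ratio of the 12 libraries, close to the other controls. The ratio of Esam to Cdh5 was 0.477 to 0.769 in controls and 0.788 to 1.62 in iNICD. Neither ratio overlapped between groups. The first is widened by Pecam1, whose own log2 fold change was -0.27 (unadjusted p = 0.046). Within the libraries of high Xist (4 controls, 3 iNICD) the log2 difference of Esam was 1.07, and within those of low Xist (2 controls, 3 iNICD) it was 0.75. A fit on the 5 low Xist libraries alone, added after seeing the data, did not call Esam (adjusted p = 0.52), and it called 37 genes in all.

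**Figure D2:**
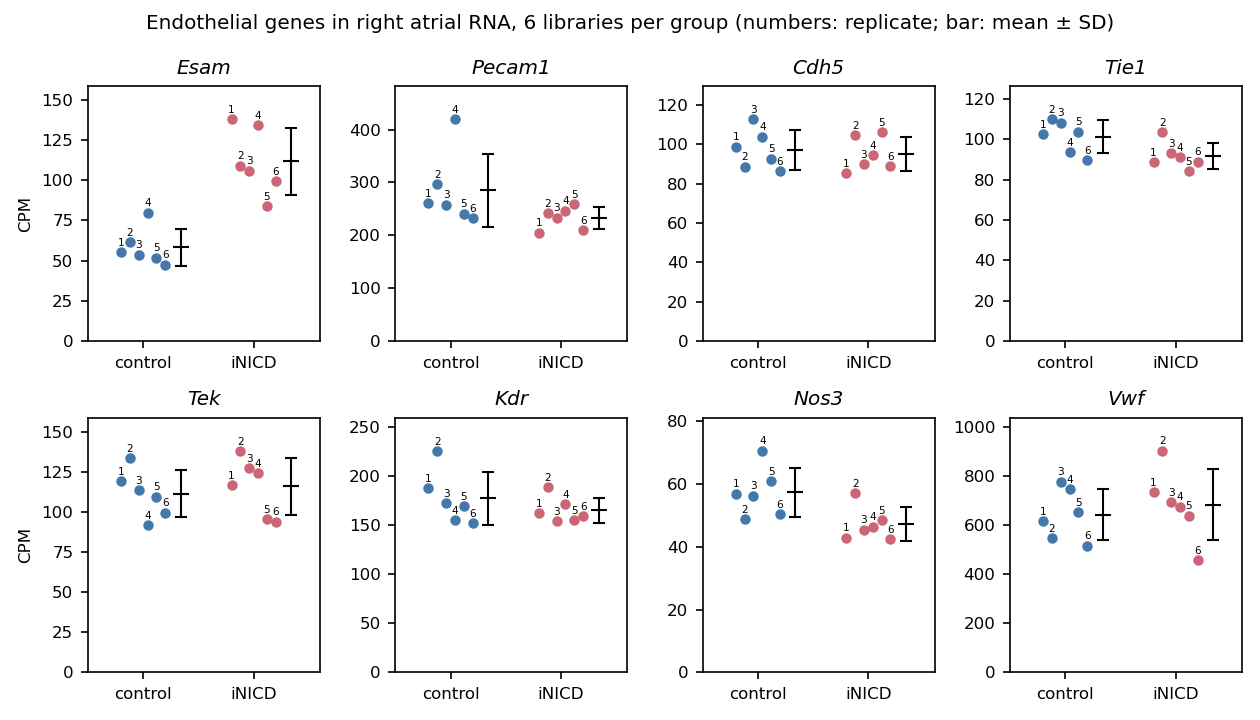
CPM of Esam and the reference endothelial genes in each library (points, numbered by replicate), with the mean and SD of 6 control and 6 iNICD libraries. The Esam points of iNICD (83.7 to 138 CPM) lie above all control points (47.5 to 79.9 CPM), while the groups of the other genes overlap.

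The gene neighbourhood of Esam was examined because it was the one gene called, a choice made after its value was seen. Of the 7 other tested genes whose left end lies within 200 kb of its own, 3 were higher in iNICD, none with overlap between groups. Nrgn, neurogranin, a calmodulin-binding protein best known from neurons, was at 3.25 to 5.02 CPM with a median of 4.01 in controls and 6.54 to 8.38 CPM with a median of 7.74 in iNICD, a log2 fold change of 0.85 (standard error 0.13, limma adjusted p = 0.00071). For Siae, a sialic acid esterase, controls ran from 10.1 to 20.4 CPM with a median of 18.6 and iNICD from 48.8 to 103 CPM with a median of 66.6, a log2 fold change of 1.97 (standard error 0.18, limma adjusted p = 1.4e-05). The third gene, Spa17, a sperm surface protein gene, was at 1.23 to 2.25 CPM with a median of 1.35 in controls and 3.58 to 6.32 CPM with a median of 4.77 in iNICD, a log2 fold change of 1.41 (standard error 0.16, limma adjusted p = 6.1e-05).

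These 3 genes lie in a row beyond the 3′ end of Esam, with Vsig2 between. Vsig2 follows Esam directly at chr9:37539255-37544205, and its log2 fold change of 0.34 did not pass (limma adjusted p = 0.11). Nrgn is at chr9:37544492-37552904 on the minus strand, Siae at chr9:37555698-37649655 on the plus strand and Spa17 at chr9:37603290-37613722 on the minus strand. Spa17 lies within the span of Siae on the other strand. No source used here says whether the counting used strand, so reads of Siae and Spa17 cannot be told apart where they overlap. On the other side of Esam, Msantd2 had a log2 fold change of -0.0043 and Robo4, itself one of the 39, of -0.20. Tbrg1, which meets the far end of Siae, was at -0.0077, and none of these 3 passed the test.

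Other endothelial genes had fewer called neighbours. Within 200 kb of the members other than Esam and Robo4, 168 neighbouring genes were tested, and 5 were higher and 2 lower, which is 4.17% beside 6.71% of all tested genes. No other member had more than 1 neighbour called higher. One of the 5 was Notch1 itself, which lies near Egfl7 and served above as the check of the labels. Whether its reads came from that gene or from the iNICD allele cannot be told here.

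**Figure D3:**
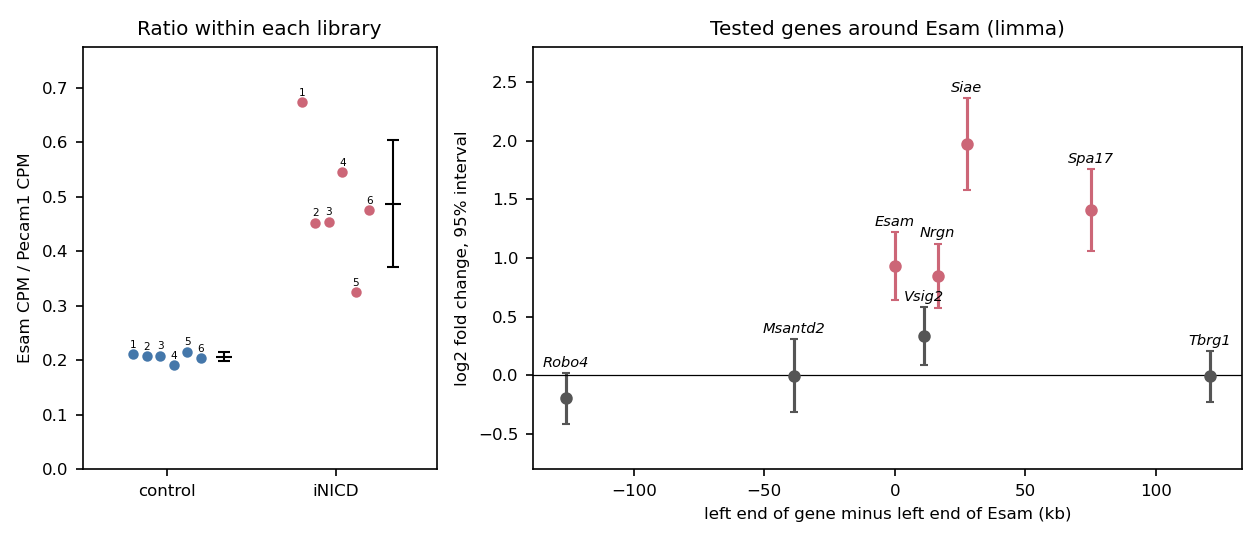
Left, the ratio of Esam to Pecam1 CPM in each library (points, numbered by replicate) with the mean and SD of 6 per group, where every iNICD library is above every control. Right, fitted log2 fold change (points, with 95% intervals) of Esam and the tested genes within 200 kb of it, by the distance of their left ends from that of Esam in kb: Esam, Nrgn, Siae and Spa17 stand at 0.85 to 1.97, and the other 4 genes lie between -0.20 and 0.34.

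The other junction and surface genes gave no call. Pecam1, which joins endothelial cells to each other and to blood cells, was at 261, 296, 258, 419, 241 and 233 CPM in controls 1 to 6, against 205, 241, 233, 246, 258 and 209.5 CPM in iNICD libraries 1 to 6. Control 4 was far above all other libraries and the remaining values overlapped. The log2 fold change was -0.27 (95% interval -0.53 to -0.0053, limma adjusted p = 0.25), and -0.15 without control 4. Cdh5, the adhesion protein of the endothelial adherens junction, was at 98.8, 88.6, 113, 104, 92.7 and 86.2 CPM in controls 1 to 6, against 85.3, 105, 89.7, 94.5, 106 and 88.9 CPM in iNICD libraries 1 to 6. Those ranges nearly coincided, with a log2 fold change of -0.032 and an interval of -0.21 to 0.14. The tight-junction gene Cldn5 was among the most variable of the 39, at 11.6 to 36.3 CPM with a median of 18.5 in controls and 9.25 to 26.7 CPM with a median of 14.7 in iNICD. Its log2 fold change was -0.32 with a standard error of 0.31, one of the largest of the 39, and -0.13 without control 4. Eng, the sialomucin genes Emcn and Cd34, the adhesion gene Icam2 and the matrix gene Mmrn2 had log2 fold changes between -0.11 and 0.033, with no interval beyond -0.3 to 0.3.

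All 3 VEGF receptors were expressed in both groups, and 0 were called by limma, edgeR or DESeq2 (1, Flt1, at an unadjusted p under 0.05). Kdr (VEGFR2), the main signalling receptor of vascular endothelium, was at 188, 226, 172, 155, 169 and 152 CPM in controls 1 to 6, against 162, 188, 154, 172, 155 and 159 CPM in iNICD libraries 1 to 6. The iNICD values lay within the control range, and the log2 fold change was -0.093 with an interval of -0.29 to 0.11. Flt1 (VEGFR1), which binds VEGF-A and limits how much reaches Kdr, was at 116 to 150.3 CPM with a median of 118 in controls and 104 to 117 CPM with a median of 109.8 in iNICD. Only the top of the iNICD range reached the lowest controls, and control 4 was well above the other controls. Its log2 fold change of -0.16 did not pass over all genes (limma adjusted p = 0.25, exact permutation p before adjustment = 0.0065). Without control 4 it was -0.10. Flt4 (VEGFR3), the receptor of lymphatic endothelium, had a log2 fold change of 0.089 with an interval of -0.11 to 0.29.

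The Tie pathway sets vessel stability, with Tek (Tie2) as receptor, Tie1 as its partner and Angpt2 as a ligand made by endothelium that can block Tek. Tek was at 119.7, 134, 114, 92.1, 109.8 and 99.9 CPM in controls 1 to 6, against 117, 138, 128, 125, 95.7 and 94.2 CPM in iNICD libraries 1 to 6. Both groups spanned much the same range, with a log2 fold change of 0.056 and an interval of -0.18 to 0.29. Tie1 was at 103, 109.9, 108, 93.5, 104 and 89.8 CPM in controls 1 to 6, against 88.9, 103, 93.3, 91.2, 84.2 and 88.9 CPM in iNICD libraries 1 to 6. Most iNICD values lay below most control values but the groups overlapped, and the log2 fold change of -0.14 did not pass by limma (adjusted p = 0.31). DESeq2, with an estimate of -0.20, called Tie1 at an adjusted p of 0.029. Angpt2, at 0.23 with an interval of -0.038 to 0.49, had the highest estimate of the 38 genes other than Esam.

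Of the 9 transcription factor genes 0 were called by limma and DESeq2 called 1, Gata2. Their estimates were negative for 8 of the 9 (9 of 9 with other scalings), and 2 had an unadjusted p under 0.05. Nfatc1, the calcineurin-dependent factor that marks endocardium in the developing heart, was at 29.6 to 49.9 CPM with a median of 33.3 in controls and 23.9 to 38.6 CPM with a median of 27.2 in iNICD. The groups overlapped, control 4 being the highest control and iNICD 5 the highest iNICD library. Its log2 fold change was -0.30 (limma adjusted p = 0.24), and -0.20 without control 4. Gata2, a factor shared by endothelium and blood progenitors, was at 15.1 to 21.4 CPM with a median of 18.8 in controls and 13.0 to 17.6 CPM with a median of 14.5 in iNICD. The upper iNICD values overlapped the lower controls, and the log2 fold change was -0.30 (limma adjusted p = 0.12). DESeq2, with an estimate of -0.37, called Gata2 at an adjusted p of 0.022. Among the SOX factors of endothelial and arterial identity, Sox17 was at -0.26, Sox18 at -0.22 and Sox7 at 0.013 on the log2 scale. The ETS factors Erg and Fli1, which maintain endothelial gene expression, were at -0.087 and -0.010. Tal1 had a log2 fold change of -0.16 and Prox1, the lymphatic regulator, of -0.019.

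Ephrin-B2 (Efnb2) marks arteries and its receptor Ephb4 marks veins. Efnb2 had a log2 fold change of 0.084 (interval -0.19 to 0.36) and Ephb4 of -0.12 (interval -0.26 to 0.029), neither called. Unc5b, a netrin receptor of arteries and tip cells, was at 0.10.

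Apelin gave the largest negative estimate of the 39 and the least certain one. Apln, the secreted peptide of sprouting endothelium, was at 4.75, 8.82, 4.88, 13.3, 5.20 and 3.91 CPM in controls 1 to 6, against 1.66, 4.99, 5.03, 3.87, 2.43 and 1.32 CPM in iNICD libraries 1 to 6. Controls 2 and 4 were the highest, iNICD 1, 5 and 6 the lowest, and the other 7 libraries mixed. The means were 6.80 ± 3.59 and 3.22 ± 1.64 CPM, a log2 fold change of -0.98 with a standard error of 0.34 and an interval of -1.70 to -0.26 (limma adjusted p = 0.11). Without control 4 the estimate was -0.77. DESeq2, with an estimate of -1.16, called Apln at an adjusted p of 0.027, and edgeR did not call it. Its receptor Aplnr, at 12.2 to 33.5 CPM with a median of 23.7 in controls and 13.5 to 30.4 CPM with a median of 24.9 in iNICD, had a log2 fold change of 0.036 with an interval of -0.48 to 0.55. Esm1 was near the limit of the filter, at 0.593 to 2.00 CPM with a median of 1.30 in controls and 0.573 to 1.46 CPM with a median of 1.08 in iNICD, and its log2 fold change was -0.28.

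Of the 5 capillary and caveolar genes 0 were called by limma, edgeR or DESeq2, and 0 had an unadjusted p under 0.05. Gpihbp1, which carries lipoprotein lipase across capillary endothelium, was at 33.1 to 83.7 CPM with a median of 38.5 in controls and 23.5 to 40.8 CPM with a median of 30.5 in iNICD, a log2 fold change of -0.42 that was -0.22 without control 4. Ly6c1, a surface marker of capillaries whose near-identical paralogs could share its reads, was at -0.40, and -0.16 without control 4. Neither passed the test with or without that library. Cav1 was at 265 to 313 CPM with a median of 297 in controls and 259 to 343 CPM with a median of 298 in iNICD, with a log2 fold change of 0.021 and one of the narrowest intervals, -0.14 to 0.18. Plvap, of fenestrated and venous endothelium, was at 0.081 and the cell cycle regulator Rgcc at -0.20.

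Of the secreted and enzyme genes, Nos3 makes nitric oxide in endothelium and endocardium. It was at 56.9, 48.9, 56.3, 70.6, 60.9 and 50.3 CPM in controls 1 to 6, against 42.9, 57.2, 45.5, 46.4, 48.4 and 42.4 CPM in iNICD libraries 1 to 6. All iNICD libraries but iNICD 2 were below the lowest control, control 2, and control 4 was the highest. Its log2 fold change was -0.28 (interval -0.48 to -0.069, limma adjusted p = 0.11), and -0.21 without control 4. DESeq2, with an estimate of -0.35, called Nos3 at an adjusted p of 0.049. Vwf, the clotting and platelet-adhesion protein of endothelium, was at 618, 548, 778, 748, 654 and 518 CPM in controls 1 to 6, against 737, 904, 694, 676, 639.6 and 458 CPM in iNICD libraries 1 to 6. The iNICD group held both the highest and the lowest library of the 12, and the log2 fold change was 0.076 with an interval of -0.23 to 0.38. Egfl7, a matrix protein of new vessels, was at -0.15, with a much wider spread in iNICD (140.4 ± 24.5 CPM) than in controls (154 ± 3.29 CPM).

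Single libraries stood out for many of the 39 genes. Control 4 had the highest value of the 6 controls for 19 genes and the lowest for 7. Against the mean of the other 5 controls, on the log2 scale, it was higher by 1.40 for Ly6c1, 1.24 for Apln, 1.16 for Gpihbp1 and 1.13 for Cldn5. In the same library Aplnr differed by -1.03, Prox1 by -0.73, Efnb2 by -0.65 and Erg by -0.58. Capillary genes were thus among the high ones and Prox1 and Efnb2 among the low ones in the same library. Control 6 was the lowest control for 20 genes. In the iNICD group iNICD 2 was the highest for 18 genes and the lowest for 0, and iNICD 6 was the lowest for 11. Without control 4 the count called was still 1 higher and 0 lower, and estimates moved both ways. The negative estimates of Pecam1, Cldn5, Gpihbp1 and Ly6c1 became smaller in size. Those of Prox1 and Erg grew, from -0.019 to -0.14 and from -0.087 to -0.18. Efnb2 went from 0.084 to -0.025 and Aplnr from 0.036 to -0.14. None of these genes was called without control 4.

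**Figure D4:**
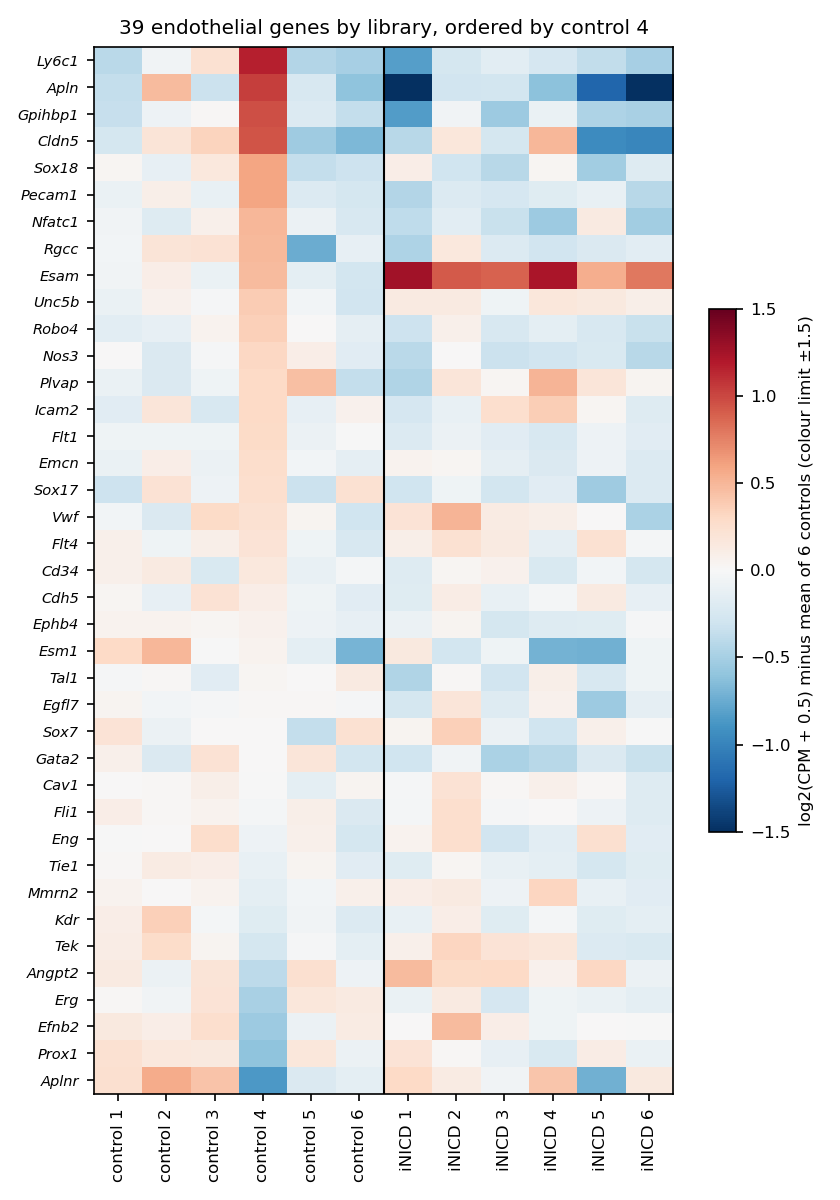
Log2 level of each of the 39 endothelial genes (rows, ordered by their deviation in control 4) in each of the 12 libraries (columns), relative to the mean of the 6 controls. Control 4 shows both raised genes (Ly6c1, Apln, Gpihbp1, Cldn5) and lowered ones (Aplnr, Prox1, Efnb2), and Esam is raised across the 6 iNICD libraries.

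Promoters were read for letters of the RBPJ core, since the active Notch1 domain works through RBPJ. RefSeq promoter windows on GRCm38.p6 were matched for 23 of the 39 genes, Esam not among them, and the 250 bases before each start were searched for TGGGAA on both strands (TTCCCA on the other). The letters were found for 7 of the 23 genes (Cav1, Egfl7, Erg, Kdr, Prox1, Tal1 and Tie1), which is 30.4%, beside 24.1% of 27025 genes. Printed as examples that hold the letters outside annotated exons are 1 of 2 windows of Cav1, 1 of 3 of Erg and 1 of 2 of Tal1. The other windows of these genes hold none. The printed Erg window lies within the span of the gene, and the window before its outer start holds none. The window of Apln, the gene of the largest negative estimate, is printed too and holds none. Each printed window is written 5′ to 3′ on the strand of the gene, with TGGGAA or TTCCCA in capitals. A match of letters is a description and not a binding site.
Cav1, chr6:17306085-17306334, plus strand: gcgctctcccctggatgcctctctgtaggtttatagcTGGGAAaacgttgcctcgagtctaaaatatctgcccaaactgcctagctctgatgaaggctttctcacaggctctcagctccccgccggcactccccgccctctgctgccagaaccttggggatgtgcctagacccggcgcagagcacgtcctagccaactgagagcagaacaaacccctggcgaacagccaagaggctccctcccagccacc
Erg, chr16:95459349-95459598, minus strand: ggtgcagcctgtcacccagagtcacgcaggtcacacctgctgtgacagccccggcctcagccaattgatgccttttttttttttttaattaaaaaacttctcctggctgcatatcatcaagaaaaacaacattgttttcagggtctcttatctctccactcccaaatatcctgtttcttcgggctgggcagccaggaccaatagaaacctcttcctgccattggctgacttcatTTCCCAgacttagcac
Tal1, chr4:115056176-115056425, plus strand: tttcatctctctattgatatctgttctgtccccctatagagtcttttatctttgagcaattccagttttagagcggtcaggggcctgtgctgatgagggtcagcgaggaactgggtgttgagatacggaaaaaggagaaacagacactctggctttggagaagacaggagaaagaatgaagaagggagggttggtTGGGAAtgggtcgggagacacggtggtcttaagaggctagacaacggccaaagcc
Apln, chrX:48034854-48035103, minus strand: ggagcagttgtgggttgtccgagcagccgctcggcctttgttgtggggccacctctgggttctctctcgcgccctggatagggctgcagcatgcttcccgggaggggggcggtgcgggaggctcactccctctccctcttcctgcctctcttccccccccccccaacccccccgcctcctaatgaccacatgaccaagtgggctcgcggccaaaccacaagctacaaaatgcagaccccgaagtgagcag

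Notch pathway genes that endothelium shares with other cells were read beside these levels. Of 11 tested, 5 were higher and 1 lower by limma, the test behind every count of calls where no other tool is named. Nrarp, a Notch feedback inhibitor, was at 10.7 to 15.0 CPM with a median of 11.4 in the control group and 112 to 251 CPM with a median of 172 in the iNICD group (log2 fold change 3.77, limma adjusted p = 1.6e-09). The repressor genes Hes1, Heyl and Hey1 were higher by 1.98, 1.73 and 1.51 on the log2 scale, and the ligand Jag1 by 0.64. Jag2, another ligand, fell by 1.16. Dll4 and Notch4, also of this list, were not called by limma or edgeR, while Hey1 is also among the arterial genes below. Which cells gave the changes of this list was not tested. Dll4, the tip-cell ligand, had a log2 fold change of -0.17 (limma adjusted p = 0.50), and Notch4, the endothelial receptor, of -0.43 (limma adjusted p = 0.083). DESeq2 called Notch4 lower and did not call Dll4.

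On the ligand side of VEGF signalling, 1 of 11 tested genes was lower and 1 higher. Vegfa, the main growth factor for Kdr and Flt1, made largely by muscle and stromal cells, was at 239.6 to 303 CPM with a median of 250.2 in controls and 169 to 200.2 CPM with a median of 171 in iNICD. Its groups did not overlap, and it fell by 0.54 on the log2 scale (standard error 0.077, limma adjusted p = 0.00044). Nrp1, a co-receptor for VEGF and semaphorins, was at 108 to 179 CPM with a median of 171 in controls and 176 to 268 CPM with a median of 238 in iNICD. Control 4 was far below the other controls and the groups overlapped slightly. Its log2 fold change of 0.49 passed (limma adjusted p = 0.038) but missed the threshold without any one of controls 1, 2, 5 and 6 or iNICD 1 to 4, with values of 0.38 to 0.57 over the fits with a library left out and adjusted p up to 0.099.

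The BMP9 and ALK1 pathway keeps vessels quiescent, and 2 of its 10 tested genes were lower. Tmem100, an endothelial target of ALK1, was at 13.6 to 35.4 CPM with a median of 15.8 in controls and 8.13 to 14.3 CPM with a median of 9.42 in iNICD (log2 fold change -0.82, limma adjusted p = 0.024). Id1, a BMP target, was at 67.5 to 139.7 CPM with a median of 78.9 in controls and 53.4 to 64.7 CPM with a median of 60.3 in iNICD (log2 fold change -0.50, limma adjusted p = 0.046). Control 4 was the highest library for both, at 35.4 and 139.7 CPM, and without it the estimates were -0.63 and -0.35, both past the test. Tmem100 missed the threshold without iNICD 3, 5 or 6 (adjusted p up to 0.059). Id1 missed it without control 1, 2, 3 or 5 or any 1 of the 6 iNICD libraries (adjusted p up to 0.11, values of -0.56 to -0.35), and also by edgeR. The receptor Acvrl1 (ALK1) had a log2 fold change of -0.054 and was not called.

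**Figure D5:**
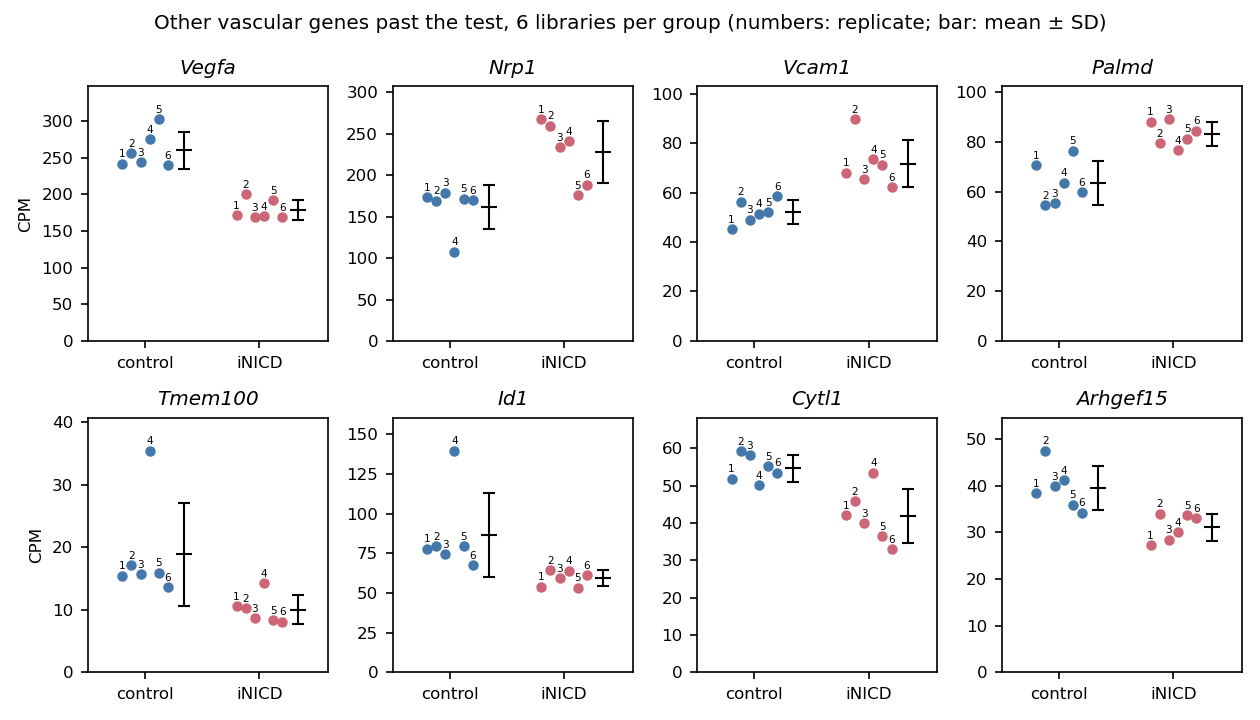
CPM in each library (points, numbered by replicate) of 8 further vascular genes that passed the test, with the mean and SD of 6 libraries per group. Vegfa, Vcam1, Palmd, Id1 and Arhgef15 do not overlap between groups, and control 4 stands far from the other controls for Nrp1, Tmem100 and Id1.

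Other vascular lists held 1 or 2 calls each among 4 to 22 tested genes, where 6.71% of all tested genes were called. Lists this small give no firm share to set beside that. Among 22 further genes of endothelium in general, Palmd was higher by 0.40 (limma adjusted p = 0.011) and Arhgef15, a guanine exchange factor, fell by 0.34 (limma adjusted p = 0.032). Arhgef15 missed the threshold without control 1, 2 or 3 or iNICD 1, 3 or 4, with values of -0.38 to -0.28 and adjusted p up to 0.087. Of 5 venous genes the adhesion molecule Vcam1, which stromal cells also make, was higher, from 45.2 to 58.6 CPM with a median of 51.7 in controls to 62.2 to 89.6 CPM with a median of 69.7 in iNICD (log2 fold change 0.45, limma adjusted p = 0.0066). Of 7 arterial genes Hey1 was the 1 called, the same gene already counted above among the Notch pathway genes. Among 4 endocardial genes Cytl1 fell by 0.40 (limma adjusted p = 0.027), while Npr3, a natriuretic peptide clearance receptor of endocardium, had a log2 fold change of 0.026 and Foxc1 of 0.024. Gata4, a factor of endocardium that cardiomyocytes also use, was at 109 to 135 CPM with a median of 126 in controls and 135 to 158 CPM with a median of 148 in iNICD. Its log2 fold change of 0.25 by limma missed the threshold (adjusted p = 0.051). The gene was not called by edgeR, while DESeq2 called it. Without control 2, 3 or 5 or iNICD 1, 3, 5 or 6 the call of Cytl1 was lost, with values of -0.47 to -0.33 and adjusted p up to 0.064.

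Flow-response, lymphatic and further capillary genes gave 0 limma calls among 9, 5 and 10 tested, with 4, 0 and 3 at an unadjusted p under 0.05. Among these genes edgeR called 1 (Aqp1) and DESeq2 called 2 (Aqp1 and Cd300lg). Klf2 and Klf4, the shear-induced factors, had log2 fold changes of -0.70 and -0.64 with standard errors of 0.31 and 0.29. Ramp2 and S1pr1 were the other flow-response genes at an unadjusted p under 0.05. Of the 9 flow-response estimates 5 were positive and 4 negative, with a median of 0.044 and a range of -0.70 to 0.30. The median log2 fold change of the 10 capillary genes was -0.35, and -0.23 without control 4. Aqp1, the water channel, was at -0.42 (limma adjusted p = 0.054), Fabp4 at -0.40 and Car4 at -0.35. Control 4 was the highest control for each of these 3. Lyve1, of lymphatic vessels and some macrophages, was at -0.36.

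Markers of other cell types differed between the groups to different degrees. The endothelial genes' summed level was 3087 to 3909.7 CPM in the control group and 2996 to 3973 CPM in the iNICD group, with broad overlap. Of 10 cardiomyocyte markers 3 were lower (Nppa, Myl7 and Sln) and 0 higher, and their sum was 153682 to 164334 CPM in controls and 131315 to 147581 in iNICD. Of 10 macrophage markers 6 were higher, with sums of 527 to 637 and 608 to 891 CPM. Cell cycle genes were higher for 6 of 6 tested, with sums of 18.0 to 24.7 and 34.5 to 94.4 CPM. Of 10 pericyte and smooth muscle markers 1 was higher, Cspg4 (NG2), from 69.8 ± 19.2 to 251 ± 43.4 CPM, while Pdgfrb and Rgs5 had log2 fold changes of 0.087 and -0.13. Fibroblast markers had 1 of 9 higher (Tcf21), lymphocyte markers 2 of 3 and mast cell markers 1 of 5.

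Because Esam is also found on platelets, the platelet lineage was read beside it. Of 4 megakaryocyte and platelet genes 0 were called by limma, edgeR or DESeq2, and 0 had an unadjusted p under 0.05. Pf4 was at 19.6 ± 8.63 CPM in the control group and 19.5 ± 3.22 CPM in the iNICD group, and the sum of the list was 21.3 to 44.9 and 18.0 to 49.4 CPM. Epicardial, adipocyte, erythroid and Schwann or neuron markers gave 0 limma calls among 6, 5, 5 and 4 tested, with 0, 0, 1 and 1 at an unadjusted p under 0.05. Among them edgeR called 0 and DESeq2 called 1, the Schwann or neuron gene Th. The part of the macrophage, cardiomyocyte and cell cycle shifts in the endothelial values was not tested.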

How the data were processed

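Right atrial total RNA was extracted with Trizol and made into libraries by Illumina protocols, per the labels' protocols. The authors deposited CPM values, counts scaled to the library total, in 41264 rows holding 40690 gene identifiers. The 574 repeated rows were identical and used once. The submitters' processing notes name STAR 2.4.0b and featureCounts. Not given in the sources used here are the genome build, annotation, strand setting and treatment of multimapped reads. Of the 39 genes, 16 are overlapped by another annotated gene, 7 of them by a coding one (Ephb4, Plvap, Eng, Egfl7, Nos3, Angpt2 and Esm1), and could share its reads.

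Every CPM value was a whole multiple of 1 read (100% within 0.001 reads), so reads were recovered. The depth was 12015650 to 22716190 reads, and 1 CPM rests on at least 12 reads. The main test was limma 3.58.1 (R 4.3.3) with trend and robust estimation on log2(CPM + 0.5), for genes reaching 1 CPM in 6 or more libraries, with Benjamini-Hochberg adjustment over 14336 genes and a threshold of 0.05. Fold changes are on that scale, which understates low genes. Exact two-sided permutation tests used 924 relabellings. On the recovered reads edgeR 4.0.16 called 1003 genes and DESeq2 1.42.0 called 1425, beside 962 by limma. The script was tried on simulated reads. No label ties the replicate numbers of the groups, and samples were not paired.

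The 39 genes and the other lists were chosen with earlier results of these data known. Named were the called genes, those without overlap, 7 reference genes (Pecam1, Cdh5, Kdr, Tie1, Tek, Vwf and Nos3), up to 4 called genes of each other list, and known cell type markers. Other genes named, and the neighbours of Esam, were chosen after their values were seen. Positions are from GENCODE (GRCm38), matched by identifier, and promoters from RefSeq (GRCm38.p6).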

Additional observations from a re-analysis of the deposited data

Results flagged for a closer look

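For 100 groups of 6 libraries, the farthest library was set against the spread of the rest by Dixon's ratio. It passed its 95% limit in 12 groups, where chance flags about 1 in 20. Control 4 accounted for 8 of the 12. In it Flt1 (150.3 CPM), Gpihbp1 (83.7), Tmem100 (35.4) and Id1 (139.7) stood above the other controls, and Erg (18.2), Prox1 (49.6), Siae (10.1) and Nrp1 (107.8) stood below them. The other 4 were Cav1 in control 5 (265 CPM, low), Spa17 in control 6 (2.25, high), Efnb2 in iNICD 2 (32.0, high) and Unc5b in iNICD 3 (119.6, low). Without control 4 Siae was at a log2 fold change of 1.82 and Nrp1 at 0.38, and both still passed the limma test (adjusted p = 8.6e-07 and 0.026).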

How the results depend on the processing

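Esam passed the test in all 25 other settings listed at the start and in 3 of the 4 added after seeing the data, with log2 fold changes of 0.75 to 1.07 over the 29 and adjusted p of 3.0e-06 to 0.0032 over the first 25. Low Xist libraries alone gave 0.75, 0 members called higher and 37 genes called in all. Esam, Nrgn, Siae, Spa17 and the 8 other vascular genes plotted kept their sign in every one of the 29 that tested them (Spa17 was not tested with the stricter filter). Of the 39, 19 changed sign in 1 or more of the 29 settings, each uncalled with the new sign (lowest adjusted p 0.45), most often Icam2 (13 settings), Aplnr and Prox1 (10 each). The 19 include Cldn5, at 0.21 with the mean of Pecam1, Cdh5, Tie1 and Erg as covariate (added). Genes called lower among the 39 numbered 4 by DESeq2 and 2 with array weights (Nos3 and Gata2). With the mean of 5 endothelial genes as covariate they numbered 6 (Pecam1, Cldn5, Robo4, Nos3, Apln and Gpihbp1). That mean holds Esam and Pecam1 themselves. With Esam taken out of the mean (added), 0 of the 39 were called lower, and the median of the 39 was -0.0098. In either direction DESeq2, array weights and the mean of 5 genes as covariate called 1425, 1522 and 1054 of all tested genes, beside 962 in the main fit. Their shares of all genes called lower are not given here. With a replicate block the whole table gave 1091 calls, and 1 member was called lower (Apln, -0.98, limma adjusted p = 0.015). Same-numbered libraries of the groups correlated at -0.0056 to 0.32, with 3 of 6 best with their own number, so the pairing was not used. All genes called numbered 1522 with array weights, 264 with that covariate without Esam (added), 476 without the 3 libraries rich in Gm42418 (added), and 614 to 1208 with each library left out, the lowest without iNICD 1. Genes without overlap numbered 3 in high and 8 in low Xist libraries alone. That is 7.69% and 20.5% of the 39, beside 22.1% and 22.8% of all tested genes. With median-of-ratios or with quantile scaling they numbered 0, beside 4.6% and 4.62% of all tested genes. With each library left out they numbered 1 to 2, beside 4.75% to 6.43% of all tested genes. The count of 2 came without control 5 or iNICD 2, which is 5.13% of the 39 beside 5.1% and 5.11%. Leaving out each library gave 1 higher and 0 lower throughout. The median of the 39 stayed between -0.16 and -0.0098, and scaling moved the median of all genes from 0.045 to -0.0064 or -0.015. Of the 8 other vascular genes plotted, Vegfa and Vcam1 kept their calls without the 3 libraries rich in Gm42418, while Nrp1, Palmd, Cytl1, Tmem100, Arhgef15 and Id1 did not (adjusted p of 0.061 to 0.21), nor did these 6 with the covariate without Esam. None of the 8, nor Nrgn, Siae or Spa17, was called in the low Xist libraries alone. Nrp1 missed the threshold with the replicate block (limma adjusted p = 0.052) and with the mean of 5 endothelial genes as covariate (limma adjusted p = 0.072). Id1 missed it by edgeR and with median-of-ratios scaling, and Id1 and Arhgef15 with no filter. The causes of these shifts were not tested. Depth limits Esm1 most, the lowest of the 39 at a mean of 1.16 CPM. Apln, at a few CPM, had the largest standard error, 0.34, while Sox17, also at a few CPM, had 0.14.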
